A study of Mus musculus with 2 samples.

Results

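The epidermal differentiation complex and the S100 genes beside it lie on mouse chromosome 3, and 14 of the 15384 Ehf peaks in the deposited list fell there. The peaks were chosen by position alone, but the positions and intervals were chosen with earlier results of these data known. A peak was a member when its midpoint lay between 90.1 and 93.45 Mb of chromosome 3 in the build mm9. Ehf is a transcription factor of epithelia and a member of the ETS family. Its binding was mapped by ChIP-seq, in which chromatin is precipitated with an antibody and the recovered DNA is sequenced. Corneal epithelium, the outer cell layer of the eye, was taken from wild-type mice aged 2 to 3 months, pooled over 15 animals, and 24 ug of its chromatin was used with the antibody named ESE-3A (E-15). The labels call the strain CB6 in one place and C57Bl/6 in another, and they give no sex. The other sample was input chromatin from the same tissue, of which no values were analysed here. With 1 library of each kind, no comparison between samples could be tested. The intervals below cover counting error over peaks, and neighbouring peaks are not independent, so the true error is larger. No counts come with the list, so depth is not known, and a peak list carries no expression from which the tissue could be checked.

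The complex encodes proteins that harden stratified epithelium. Loricrin (Lor), involucrin (Ivl) and the small proline-rich proteins, among them Sprr1a and Sprr1b, are cross-linked by transglutaminases into the cornified envelope beneath the membrane of a dying keratinocyte. The late cornified envelope (Lce) proteins join that envelope later. Filaggrin (Flg) bundles keratin filaments and belongs to the fused S100-type proteins, with Flg2, hornerin (Hrnr), repetin (Rptn), trichohyalin (Tchh), Tchhl1 and cornulin (Crnn). The S100 genes encode small calcium-binding proteins. S100a8 and S100a9 form calprotectin, an antimicrobial protein of inflamed epithelium, and S100a10 and S100a11 bind annexins. The cornea is a stratified epithelium that does not normally cornify, and Sprr proteins are known there from stress and keratinising disease. ETS factors recognise DNA with a GGAA core.

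In the RefSeq gene order of GRCm38.p6, which is another build than that of the peaks, 70 protein-coding genes ran from S100a1 to S100a10. The first 12, from S100a1 to S100a9, were all S100 genes. After 5 further genes came the 51 genes from Lor to Tchhl1, and S100a11 and S100a10 closed the row. The order held 14 Sprr and 21 Lce genes. Gene positions of that build were not set beside mm9 positions, so no peak was assigned to a gene. The intervals used below are named for gene families. They are the S100 end (90.1 to 90.6 Mb), the cornified envelope middle (91.8 to 93.2 Mb) and the S100a10/S100a11 end (93.2 to 93.45 Mb). The stretch between the first and the second of these (90.6 to 91.8 Mb) was described as well. Which genes each interval holds in mm9 was not checked, and an interval may hold genes of other families. A peak in the S100 end therefore need not lie among S100 genes.

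The promoters of the 5 genes that stand for the cornified envelope and its filaments are shown to let the ETS core be seen in them. Each run of 300 bases covers 250 bases before the annotated start and 50 after it, from RefSeq on GRCm38.p6, 5′ to 3′ on the gene's strand. Capitals mark GGAA, its reverse complement TTCC, and TATAAA, the TATA box letters. The windows are chr3:92083093-92083392 for Lor, chr3:92573686-92573985 for Ivl, chr3:92485832-92486131 for Sprr1a and chr3:92438730-92439029 for Sprr1b, all on the minus strand, and chr3:93273296-93273595 for Flg on the plus strand, and these positions cannot be compared with the mm9 positions of the peaks.
Lor: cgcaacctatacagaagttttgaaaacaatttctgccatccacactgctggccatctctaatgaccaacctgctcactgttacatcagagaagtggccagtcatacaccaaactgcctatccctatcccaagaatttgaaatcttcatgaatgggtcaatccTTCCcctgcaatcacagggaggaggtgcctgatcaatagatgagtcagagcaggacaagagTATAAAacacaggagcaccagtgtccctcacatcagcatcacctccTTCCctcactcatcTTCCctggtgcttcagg
Ivl: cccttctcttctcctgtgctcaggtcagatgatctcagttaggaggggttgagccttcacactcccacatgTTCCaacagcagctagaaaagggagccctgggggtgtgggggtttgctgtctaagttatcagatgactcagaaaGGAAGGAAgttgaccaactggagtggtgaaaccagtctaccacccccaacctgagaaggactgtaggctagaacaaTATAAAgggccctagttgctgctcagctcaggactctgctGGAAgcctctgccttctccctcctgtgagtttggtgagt
Sprr1a: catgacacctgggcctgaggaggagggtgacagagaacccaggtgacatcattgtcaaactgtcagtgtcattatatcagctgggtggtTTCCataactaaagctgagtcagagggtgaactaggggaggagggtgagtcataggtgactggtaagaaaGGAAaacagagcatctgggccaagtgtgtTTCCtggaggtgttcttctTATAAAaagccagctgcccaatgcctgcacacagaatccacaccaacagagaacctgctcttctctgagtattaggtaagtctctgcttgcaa
Sprr1b: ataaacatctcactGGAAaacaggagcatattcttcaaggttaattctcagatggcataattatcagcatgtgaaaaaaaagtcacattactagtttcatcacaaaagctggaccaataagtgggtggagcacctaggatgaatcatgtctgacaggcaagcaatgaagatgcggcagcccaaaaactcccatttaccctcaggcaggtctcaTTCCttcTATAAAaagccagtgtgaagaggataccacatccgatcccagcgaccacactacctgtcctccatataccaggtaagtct
Flg: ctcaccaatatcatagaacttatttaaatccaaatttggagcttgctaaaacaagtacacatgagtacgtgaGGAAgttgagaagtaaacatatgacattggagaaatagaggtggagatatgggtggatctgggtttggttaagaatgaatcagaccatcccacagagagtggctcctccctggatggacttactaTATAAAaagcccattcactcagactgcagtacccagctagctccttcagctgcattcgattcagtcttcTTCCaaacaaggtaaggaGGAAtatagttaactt

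All 5 windows held the core, with 4 matches in Ivl, 3 each in Lor, Sprr1a and Flg, and 2 in Sprr1b. In Ivl a pair of GGAA cores adjoined each other, beginning 105 and 101 bases before the start. In Lor the 3 matches all read TTCC on the gene's strand. The core is common: it was found in 96.0% of the 32851 RefSeq promoter windows used, which had a median of 3 matches. Its presence therefore does not set these genes apart. TATAAA was present once in each of the 5 windows, from 27 bases before the start in Lor to 53 in Flg, against 8.32% of all windows. Whether Ehf occupied any of these windows was not analysed here.

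**Figure D1:**
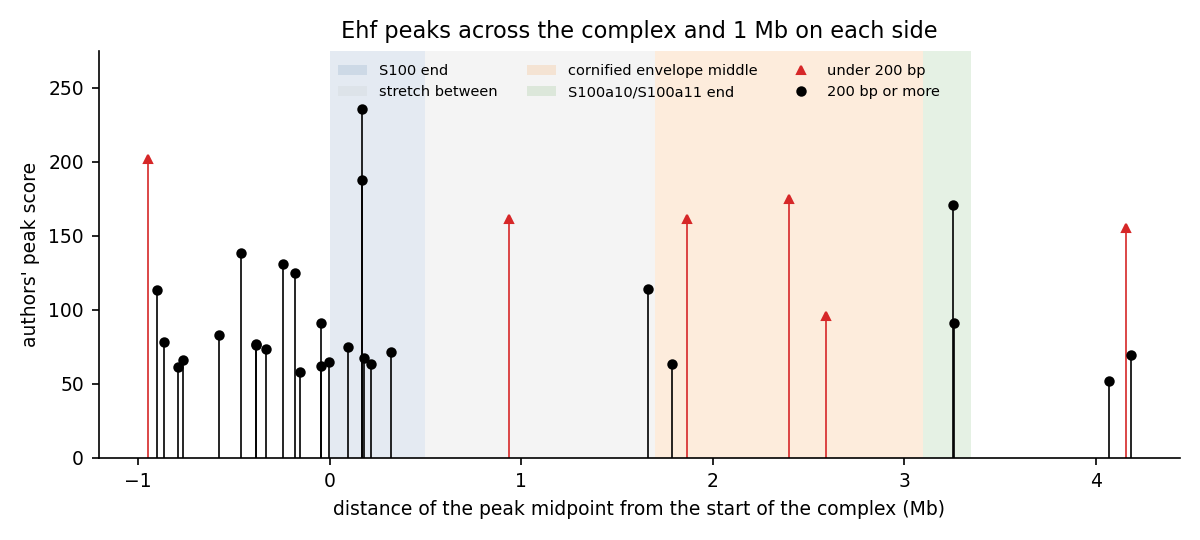
Each Ehf peak is drawn at the distance of its midpoint from the start of the complex (x axis, Mb) with the authors' score as its height (y axis). Shading gives the intervals, red triangles are peaks under 200 bp and black circles wider ones. Wide peaks crowd the S100 end and the 1 Mb before it, and 4 narrow peaks stand apart in the stretch between and the cornified envelope middle.

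Peak counts per Mb varied over the complex. With all peaks counted, the differences between the intervals named for gene families lay within counting error. The S100 end held 6 peaks in 0.5 Mb, the stretch between held 2 in 1.2 Mb, the cornified envelope middle held 4 in 1.4 Mb, and the S100a10/S100a11 end held 2 in 0.25 Mb. These are 12.0 peaks per Mb in the S100 end (95% exact Poisson interval 4.40 to 26.1) and 2.86 in the cornified envelope middle (0.778 to 7.32). The S100a10/S100a11 end had 8 per Mb (0.969 to 28.9) and the stretch between 1.67 (0.202 to 6.02). These intervals overlap one another.

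The complex as a whole was not dense in Ehf peaks. Its 4.18 peaks per Mb (2.28 to 7.01) stood beside 4.61 (4.28 to 4.96) for the other 720 peaks of chromosome 3, a ratio of 0.907 (exact conditional binomial 95% interval 0.493 to 1.53). Of 44 windows of the same 3.35 Mb laid end to end over the rest of chromosome 3, 21 (47.7%) held 14 peaks or fewer, and their median was 15.5.

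The S100 end had 2.60 times the density of the rest of chromosome 3 (0.953 to 5.70). Of 300 windows of 0.5 Mb on the rest of that chromosome, 45 (15.0%) held 6 or more peaks, and over all autosomes the share was 20.3% of 4787 windows. The cornified envelope middle had 0.620 of the density of the rest of chromosome 3 (0.168 to 1.59), and 43.0% of 107 windows of its length held 4 peaks or fewer. The S100a10/S100a11 end had a ratio of 1.74 (0.210 to 6.29), and 29.8% of 601 windows of its length held 2 or more. All 3 intervals of the ratio include 1, so none of these stretches differed from its chromosome beyond counting error.

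Set against each other, the S100 end had 4.20 times the density of the cornified envelope middle (0.996 to 20.2) and 1.50 times that of the S100a10/S100a11 end (0.268 to 15.2). The S100a10/S100a11 end had 2.80 times the density of the middle (0.253 to 19.5). These 3 intervals also include 1. The wide intervals do not show that the stretches are alike. Without peaks under 200 bp, a width that was chosen in earlier work on this list with its values known, 1 peak was left in the middle, and the ratio of the S100 end to it rose to 16.8 (2.04 to 773). With peaks at or above the list's median score of 86.2 alone, the S100 end kept 2 peaks, the ratio to the middle was 1.87 (0.156 to 16.3), and that to the S100a10/S100a11 end was 0.5 (0.0362 to 6.90).

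**Figure D2:**
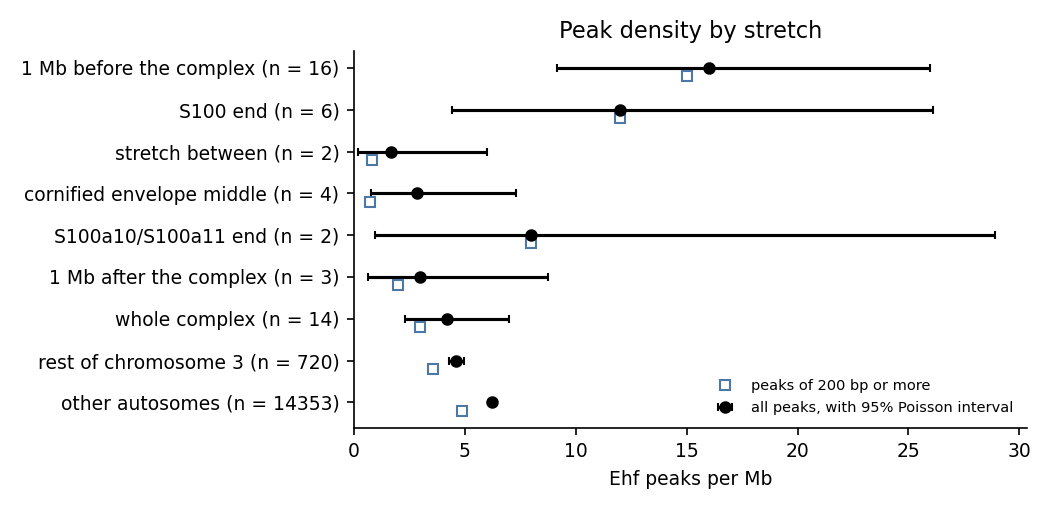
Ehf peaks per Mb (x axis) by stretch, with the number of peaks in each label. Filled circles with bars are all peaks with their 95% Poisson interval, and open squares are peaks of 200 bp or more. The S100 end (12.0 per Mb) and the 1 Mb before it (16) lie highest, and the middle falls from 2.86 to 0.714 per Mb when narrow peaks are left out.

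The S100 end continued a dense stretch that began outside the complex. The 1 Mb before the complex held 16 peaks (9.15 to 26.0 per Mb), 3.47 times the density of the rest of chromosome 3, which includes that stretch (1.97 to 5.68). The S100 end had 0.75 of that density (0.240 to 2.02), a difference within counting error. The 1 Mb after the complex held 3 peaks (0.619 to 8.77 per Mb). The nearest peak outside the first edge lay from 90097021 to 90097451, 2.76 kb from the edge by its midpoint, with a score of 64.8. Beyond the last edge the nearest lay 718 kb away, from 94167713 to 94168120, with a score of 51.9. When all intervals were widened by 50 kb on both sides, the S100 end had 15.0 peaks per Mb and its ratio to the rest of chromosome 3 was 3.27 (1.49 to 6.24). The peaks gained lay before the first edge, since the next peak past the S100 end began only at 91034151.

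Within the S100 end, 3 of the 6 peaks formed a group. The first of them, from 90268748 to 90269755, was the widest (1007 bp) and the highest-scoring (235.74) peak of the complex. The score is the authors' value for each peak, its meaning is not stated, and here it ranks and describes peaks within the list. Of the whole list, 96.5% of peaks scored lower and 99.1% were narrower. The second peak of the group followed after a gap of 69 bp, from 90269824 to 90270166, with a score of 187.99, the second highest of the complex. The third lay 9.81 kb further on, from 90279979 to 90280592, with a width of 613 bp and a score of 67.6. The group spanned 11.8 kb. Chromosome 3 had 9 groups of 3 or more peaks chained at 10 kb among 651 single peaks, pairs and groups, and this was the one in the complex.

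The other 3 peaks of the S100 end stood alone and scored low. They lay from 90193202 to 90193659 (score 75.2), from 90312842 to 90313211 (63.3) and from 90420227 to 90420582 (71.8). Their scores were above those of 37.2%, 19.6% and 33.0% of the list. The S100 end thus combined the strongest-scoring pair of the complex with 4 peaks below the list's median, and its median score was 73.5. All 6 of its peaks were 342 bp or wider.

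The cornified envelope middle, meant to take in Lor, the Sprr genes, Ivl, the Lce genes and Flg, looked different in width. Its first peak, from 91885391 to 91885757, was 366 bp wide and had the lowest score of the complex, 63.1. The other 3 were 152, 163 and 154 bp wide. They lay from 91966868 to 91967020 (score 161.21), from 92498841 to 92499004 (175.15) and from 92691988 to 92692142 (96.05). Narrow peaks, all scoring above the list's median, therefore made up 3 of its 4 peaks.

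The stretch between held 1 further narrow peak, from 91034151 to 91034308, with a width of 157 bp and a score of 161.21. Its other peak, from 91759903 to 91760213, was 310 bp wide and scored 114. At the S100a10/S100a11 end a pair of peaks lay 6.02 kb apart. The first, from 93352648 to 93352912, was 264 bp wide and scored 170.96. The second, from 93358933 to 93359361, was 428 bp wide and scored 90.8.

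Peaks under 200 bp numbered 4 of 14 in the complex (28.6%, exact Clopper-Pearson 95% interval 8.39 to 58.1%), against 22.0% of the whole list, so the complex as a whole was near the background. They were not spread evenly within it. The cornified envelope middle had 3 of 4 (75%, 19.4 to 99.4%), the stretch between 1 of 2, the S100 end 0 of 6 (0 to 45.9%) and the S100a10/S100a11 end 0 of 2. All 4 lay within 1.66 Mb, where 6 of the 14 peaks were found. The 1 Mb before the complex had 1 of 16 (6.25%). The middle and the S100 end have intervals that overlap, and the contrast was noticed in the data and not tested.

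**Figure D3:**
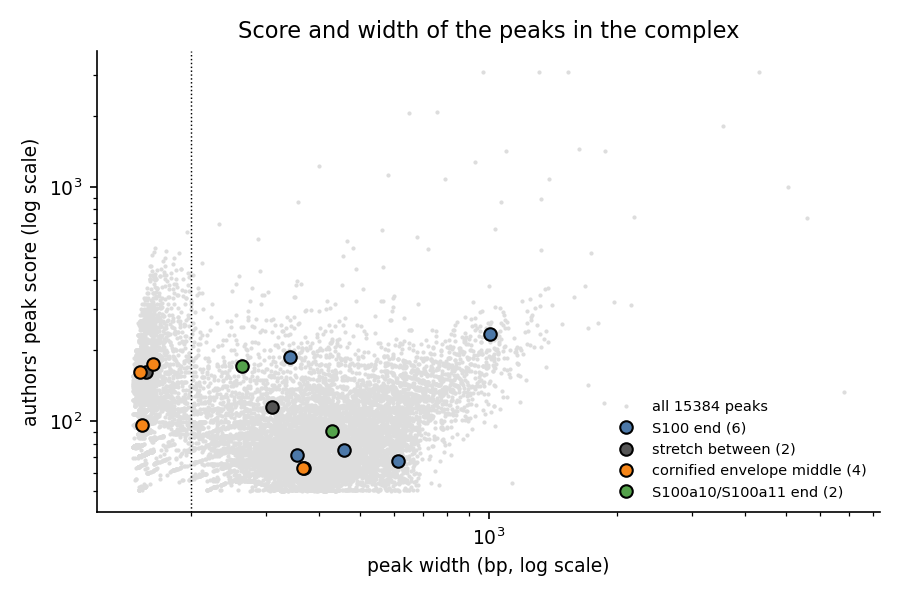
Width (x axis, bp, log scale) and authors' score (y axis, log scale) of each peak. Grey dots are the whole list of 15384, coloured circles the 14 peaks of the complex by interval, and the dotted line marks 200 bp. The 3 narrow peaks of the cornified envelope middle and the 1 of the stretch between sit left of the line, and the peak of 1007 bp in the S100 end sits at the right. The 2 peaks with scores of 63.1 and 63.3 nearly coincide.

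Over the whole complex the median score was 105 (distribution-free 95% interval of the median 67.6 to 175), against 84.2 (79.98 to 88.7) for the rest of chromosome 3. Scores in the upper quartile of the list, at or above 125, were held by 6 of the 14 peaks (42.9%, no interval computed), where the list as a whole had 25.1%. Of these 6, 3 were the narrow peaks scoring 161.21 and 175.15. The 10 wider peaks had a median score of 83.0, and narrow peaks scored higher in the whole list too, with a median of 140.02 against 78.7. Exact score values recurred. A score carried by 10 or more peaks of the list was found for 7 of the 14 peaks (50%, 23.0 to 77.0%), against 32.8% of the whole list, which lies inside that interval. The median width was 349 bp (157 to 457), against 371 bp on the rest of chromosome 3.

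Long stretches of the complex had no peak. The longest ran 726 kb from 91034308 to 91759903, in the stretch between. The next ran 661 kb from 92692142 to 93352648, across the later part of the cornified envelope middle and into the S100a10/S100a11 end. The third was 614 kb, from 90420582 to 91034151, and separated the S100 end from the rest of the complex. Another of 532 kb lay inside the middle, from 91967020 to 92498841. These 4 stretches of 500 kb or more made up 2.53 Mb, or 75.6% of the complex, while on chromosome 3 between its first and last peak such stretches made up 54.5% of the length. The 500 kb cut was not fixed beforehand, and the share was not computed over windows of the complex's length. The median gap was 107 kb over the 13 gaps in the complex and 83.2 kb over the 733 gaps of the chromosome. From the last peak of the complex to the next peak on the chromosome was 808 kb. A missing peak means that nothing there passed the authors' threshold at an unknown depth, and not that Ehf was absent.

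Another peak within 10 kb was found for 5 of the 14 peaks (35.7%, 12.8 to 64.9%), against 27.2% of the whole list and 21.1% of the rest of chromosome 3. They were the group of 3 in the S100 end and the pair at the S100a10/S100a11 end. None of the 4 peaks in the cornified envelope middle and none of the 2 in the stretch between had one. The other 3 peaks of the S100 end had their nearest neighbour 32.3 kb or more away, and those of the middle 81.1 kb or more. With neighbours counted up to 5 kb the share was 14.3%, since the pair in the S100 end alone remained, against 18.8% of the whole list and 14.2% of the rest of chromosome 3.

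The promoters of the complex differed by family in base composition. Of 65 listed genes 56 had a window in the RefSeq table, with 60 windows in all, and copies within a family share sequence. The 15 windows of S100 genes had a median G+C content of 54.3%, close to the 52.7% of all windows. Those of the 14 Sprr genes had 45.0%, of the 20 Lce genes 47.0% and of the 7 fused S100-type genes 45.0%, near or below the lower quartile of all windows (45.7%). The median count of CG dinucleotides was 3 in the S100 windows, 1 in the Sprr and Lce windows and 2 in the fused S100-type windows, against 7 over all windows.

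The ETS core in its GGAA form was found on either strand in all 45 windows outside the S100 family and in 13 of the 15 S100 windows, or 96.7% of the 60, against 96.0% of all windows. The 2 windows without it both belong to S100a3. The longer form CAGGAA was found in 11 of 14 Sprr windows and 12 of 20 Lce windows, against 30.6% of all windows. It was found in 6 of 15 S100 windows and 1 of 7 fused S100-type windows. The other 4 windows, those of Lor and Ivl among them, had no match. Every CAGGAA match is also a GGAA match. The form CCGGAA was found in none of the 60 windows, against 14.9% of all. That form contains a CG dinucleotide, and among the windows of the table with at most 2 of these its share was 1.33%. The complex had 45 such windows (75%, against 23.3% of the table). Among windows this poor in CG, CAGGAA was found in 55.6% of those of the complex and 34.4% of all. The families differed, with 9 of 11 such Sprr windows, 12 of 18 Lce and 3 of 6 S100 windows. Only 1 of 6 such fused S100-type windows and 0 of the other 4 held it. TATAAA on the gene's strand was found in 10 of 14 Sprr windows, 4 of 7 fused S100-type windows and 4 of 15 S100 windows. It was found in 2 of 20 Lce windows and in 2 of the other 4, those of Lor and Ivl. Its share was 8.32% of all windows and 15.7% of those with at most 2 CG dinucleotides, so the Lce share (10%) was near the background. A match describes letters in these windows and is not a binding site of Ehf.

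**Figure D4:**
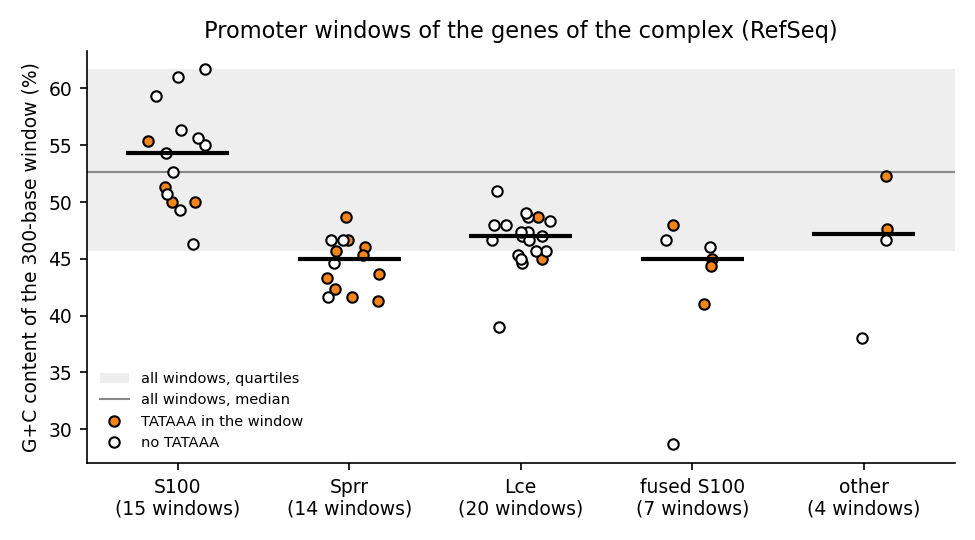
G+C content (y axis, percent) of each 300-base RefSeq promoter window by gene family (x axis). Filled circles hold TATAAA, black bars are family medians, and the grey line and band are the median and quartiles of all 32851 windows. The S100 windows (median 54.3%) lie around the grey line, and the Sprr (45.0%), Lce (47.0%) and fused S100-type (45.0%) windows lie below it.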

How the data were processed

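The deposited list gives for each Ehf peak its chromosome, bounds, name and score. The score is the authors' own value, as deposited, and its meaning is not stated. Positions, in the other columns of the deposited list, are bp in mm9 and are printed as in the file, so a start may be off by 1 bp. Bowtie 0.12.7, bedtools 2.11.2 and mm9 are named in the submitters' processing notes. The peak names begin with MACS_peak, and the caller's version, its settings and the use of the input are not stated there.

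Members were peaks with their midpoint in the interval. The members, the intervals and the gene lists were chosen with earlier results of these data known. Densities used full mm9 lengths (GenomeInfoDb 1.38.1), with 95% exact Poisson intervals for densities, exact conditional binomial intervals for ratios, Clopper-Pearson intervals for shares and order-statistic intervals for medians, all for counting error only. Windows of equal length were laid end to end from a chromosome's first peak to its last, leaving out the complex. Neighbours were peaks within 10 kb, edge to edge. Promoters were matched by symbol, and motifs were sought on both strands except TATAAA. Windows of any other length than 300 bases were left out, as were those of a single chromosome other than chromosome 3. The windows of all remaining chromosomes were kept. Shares of all windows, or of the table, are shares of those kept. The TATAAA search, base composition, pairwise ratios, windows and the cut of 500 kb for long gaps were added after seeing the data. Named peaks follow a rule (the 10 highest scores, the widest and narrowest, groups of 3 or more, the ends of each interval and of the longest gaps), which here names all 14. The ratio and its interval were checked on simulated lists, with peaks placed independently at random, for the whole complex alone. That check cannot show how the intervals perform for clustered peaks or for the shorter stretches. Alternatives were the upper-scoring peaks of the list (from its median up), leaving out peaks under 200 bp, joining peaks up to 1000 bp apart, any overlap, intervals widened by 50 kb, other chromosome lengths or references, and other neighbour distances. Python 3.11.15, numpy 2.4.6, pandas 2.3.3, scipy 1.17.1 and matplotlib 3.10.9 were used.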

Additional observations from a re-analysis of the deposited data

How the results depend on the processing

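Of 80 alternative values for 21 results, 77 stayed within the counting interval of the value reported, which is wide with 14 peaks. The other 3 did not. The density of the S100 end fell to 4 peaks per Mb when the lower-scoring part of the list was left out, the density of the cornified envelope middle fell to 0.714 without peaks under 200 bp, and the share of promoters with GGAA was 100% when genes were counted in place of windows. In each case the setting itself removed peaks or pooled windows. The ratio of the whole complex to the rest of chromosome 3 lay between 0.673, with the other autosomes as the reference, and 1.19, without the lower-scoring peaks, so its side of 1 depended on the setting. The ratio of the S100 end to the rest of chromosome 3 lay between 1.77 and 3.37. Its interval excluded 1 without peaks under 200 bp (1.23 to 7.37) and with widened intervals, but in none of the other 5 settings. These exclusions are not separate support. The S100 end had 0 of 6 peaks under 200 bp, against 22.6% on the rest of chromosome 3, and that width was chosen with the values known. Widening the S100 end gained only peaks from before the complex. Depth, which is not known, limits each of these values. Reads from near-identical genes may not be placed singly, and how they were counted is not stated. The promoter windows of Sprr2a1 and Sprr2a2 were 100% identical. No paired analysis was possible because ChIP and input are single libraries.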

Other observations

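These values were looked for after the data were seen. Several peaks of the complex carried scores that recur exactly across the list. The score 161.21 belonged to the narrow peak of the stretch between and to the first narrow peak of the cornified envelope middle, and to 52 peaks on 16 chromosomes in all, of which 47 were under 200 bp. The score 170.96, held by the first peak of the S100a10/S100a11 end, was shared by 86 peaks, 77 of them under 200 bp, and that member was the widest of them at 264 bp. The score 90.8 of its neighbour was shared by 155 peaks, none under 200 bp. All 4 narrow members had a score carried by 10 or more peaks. In the whole list the share with such a score was 56.5% of peaks under 200 bp (Clopper-Pearson 95% interval 54.8 to 58.2%) and 26.1% of wider ones (25.3 to 26.9%).

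The promoter windows of Sprr1a, Sprr1b and Flg shared the stretch TATAAAAAGCC, which begins with the TATAAA match of each. It was found in 9 of the 32851 RefSeq windows used (0.0274%), and these 3 genes of the complex were among the 9. It was picked as the longest run from TATAAA on that 3 of the 5 printed windows share, so this count is a description.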
